A study of Mus musculus with 47 samples.

Results

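The inguinal white adipose tissue (iWAT) of a mouse surrounds a mammary gland, and 44 genes of mammary epithelium and milk were followed here through 47 iWAT samples. The genes were chosen by name, as keratins and junction proteins of both epithelial layers, milk proteins, transcription factors, receptors and ligands, and secreted or apical proteins of the gland. All 44 were on the array, as 44 of 21512 genes and 67 of 34870 probes that carry a gene symbol. Of the 44 genes, 39 were bright enough to be tested in females, 39 over both sexes and 30 in males. The other 5 (Wap, Lalba, Lao1, Pgr and Muc1) stayed below that limit, which was a mean signal of 2 times the local background in each dye.

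The mice were WT animals of a mixed C57/BL6;129Svj background or Bcmo1-/- animals of that background, which lack the enzyme that cleaves β-carotene (BC) into retinal and are called null below. They were fed a pelleted diet with 1500 IU vitamin A/kg, and 10% of its energy as fat, from 5 weeks of age for 14 weeks, either as it was (control) or with 150 mg BC/kg added, and were killed at 19 weeks. Up to the change of diet all had received breeder chow that was richer in vitamin A. There were 8 groups of sex, genotype and diet, 7 of them with 6 animals, while 5 WT males had been given BC. Cy5-labelled RNA of 1 mouse was hybridized with a Cy3-labelled pool of all samples, so each level below is a log2 ratio of that mouse to the pool of both sexes, and a value of 0 means the level of the pool. Parity, mating and estrous stage are not given in the sources used here.

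A mammary duct has an inner luminal layer, which carries simple epithelial keratins and sheds into the lumen, and an outer basal layer of contractile myoepithelial cells with stratified keratins. Estrogen acts on hormone-receptor-positive luminal cells, which release amphiregulin, while prolactin acts through its receptor and STAT5 to turn on casein genes in alveolar cells, for which the factor Elf5 is needed. Caseins carry calcium phosphate in milk, while whey acidic protein (Wap) and α-lactalbumin (Lalba) appear mainly late in pregnancy and in lactation. Male mice keep only a rudimentary gland or none.

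The arrays lay on 12 slides scanned on 1 day, with a median Cy5 signal of 130 to 277 units and 46.7 to 70% of probes well above background by the scanner's flag. Xist and Ddx3y separated the 24 females from the 23 males without exception. The brightest probe of the targeted gene, Bcmo1, gave only 66 to 126 Cy5 units in any mouse, near background, so it could not check the genotype labels. The background correction used (normexp) raised the median Cy3 signal of 9 arrays by 1.53 to 5.69 times, against 0.94 to 1.5 times on the others, and dim genes sit closer to 0 on those 9 arrays. They are WT control female 1, null control females 1 and 5, null BC female 6, WT BC male 1, null control males 2 and 5, and null BC males 1 and 2. WT control male 4 was at 1.5 times, but its median Cy5 signal rose from 153 to 614 units. Its dim genes were drawn in as well, with Csn2 at -1.11 against -2.85 without the correction. Of the 9 arrays, that of null control female 1 also stood apart in another way. It had the lowest luminal keratins of all females and the smallest share of probes above background (46.7%). Most results that rest on this mouse are given with and without it.

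The casein genes lie near each other on the same chromosome, with their probes at chr5:88756868-88756927 (Csn1s1), chr5:88767303-88767362 (Csn2), chr5:88863262-88863321 (Csn1s2a) and chr5:89006985-89007044 (Csn3) on build mm8. Since 3 of these genes moved together from mouse to mouse, their upstream sequences are shown. Each is the 150 bases before the transcription start in RefSeq on build GRCm38.p6, 5′ to 3′ on the strand of the gene. No promoter was listed for Csn3, so its upstream sequence was not searched. Capitals mark TTCNNNGAA, the palindromic letters of a STAT5-type site, which reads the same on both strands and does not overlap another motif searched, since no other was searched. The stretches lie at chr5:87699426-87699575 on the minus strand (Csn2), at chr5:87666058-87666207 on the plus strand (Csn1s1) and at chr5:87774300-87774449 on the plus strand (Csn1s2a).
Csn2: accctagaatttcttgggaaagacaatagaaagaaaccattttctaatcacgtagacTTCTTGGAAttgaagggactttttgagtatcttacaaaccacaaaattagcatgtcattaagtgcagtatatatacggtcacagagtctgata
Csn1s1: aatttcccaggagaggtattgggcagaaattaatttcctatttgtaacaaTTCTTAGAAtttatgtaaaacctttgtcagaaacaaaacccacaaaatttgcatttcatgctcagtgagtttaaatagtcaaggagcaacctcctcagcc
Csn1s2a: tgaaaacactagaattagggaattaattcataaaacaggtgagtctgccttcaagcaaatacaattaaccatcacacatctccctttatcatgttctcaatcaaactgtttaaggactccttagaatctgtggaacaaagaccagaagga

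The match begins at base -93 from the start in Csn2 and at base -100 in Csn1s1. In Csn1s2a it begins at base 21 after the start, outside the stretch shown. Over the whole window of 250 bases before and 50 after the start, 7 of the 44 promoters listed for 35 genes of the set held the letters (15.9%), against 2725 of 32841 promoters of the table (8.3%). The other 4 were promoters of Esr1, Cldn7, Prlr and Glycam1, of which the first 3 genes have another promoter with no match, and the windows of Wap and Lalba held no match. A match of letters is a description of sequence and not a bound site.

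The sexes were compared first, over all 47 arrays. All 4 luminal keratins, which form the cytoskeleton of the inner layer, were far higher in females. Krt18 lay between -2.76 and 2.27 in the 24 females (median 1.11) and between -4.67 and -3.87 in 22 males (median -4.45), and its spot on the array of WT BC male 5 was marked as faulty and set aside. Krt8, its partner, lay between -2.67 and 1.69 in females (median 0.72) and between -4.03 and -3.35 in males (median -3.79). For neither gene did the lowest female reach the highest male. The median Cy5 intensity of Krt18 was 142180 units in females against 3476 in males, and that of Krt8 was 38412 against 1399. The difference of females minus males was 5.38 (SE 0.18) for Krt18, 5.13 (SE 0.18) for Krt19, 4.35 (SE 0.17) for Krt8 and 3.38 (SE 0.13) for Krt7, with adjusted p from limma of 1.91e-25, 4.27e-25, 1.83e-23 and 1.06e-23. A second probe of Krt8 gave 5.56 and a second probe of Krt7 gave 3.1, so the size of a difference depends on the probe while its direction held. In a bulk sample, fewer epithelial cells and less RNA per cell cannot be told apart.

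Over all genes tested, 54% passed an adjusted p of 0.05 in the comparison of the sexes, and 28.4% passed it with a higher level in females. All 30 genes of the set that were bright enough in males alone were among the higher ones. Another 9 (Cldn4, Csn2, Csn1s1, Csn1s2a, Elf3, Ehf, Tcfap2c, Prom1 and Lcn2) entered the test only because of their signal in females, so that they had to differ and carry no weight of their own. The median difference over the 30 was 2.91, against 0.01 over all genes bright enough in males. In 12 of the 30, every female lay above every male, where 0.41% of all such genes did, and in 17 of the 30 when null control female 1 was left out, where 1.51% did. Without background correction it was 12 of the 30, against 0.681%. The sexes shared 4 slides, and 29 of the 30 were higher in females within each of those slides.

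**Figure D1:**
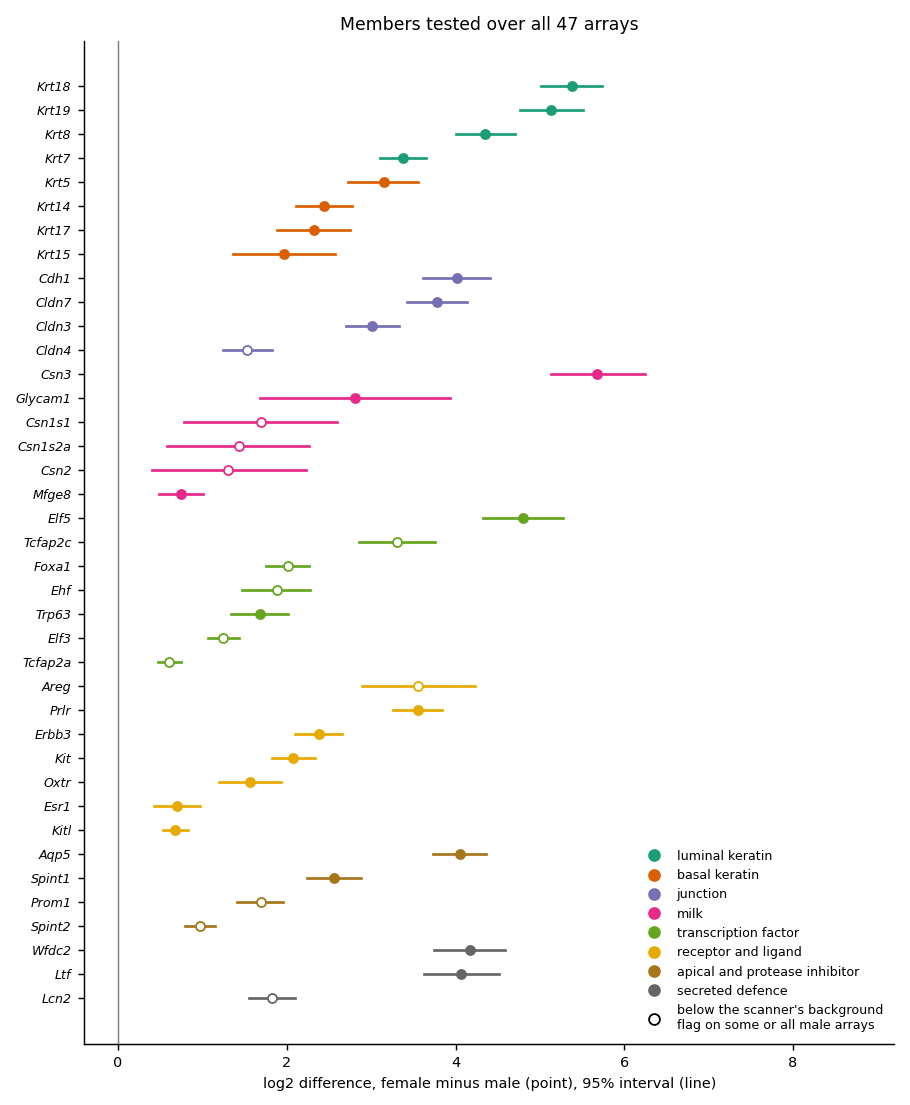
Difference of females minus males on the log2 scale for the 39 genes tested over all 47 arrays, as a point with its 95% interval as a line, coloured by role, with open points for genes that were below the scanner's background flag on some or all male arrays. The points include the 9 genes that entered only through their signal in females, and they run from Tcfap2a at 0.61 to Csn3 at 5.68, with the luminal keratins between 3.38 and 5.38.

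The basal keratins, which line the outer layer of the duct and are also made by epidermis, differed less. Krt5 lay between -1.55 and 1.59 in females (median 0.47) and between -3.27 and 0.3 in males (median -2.99). Krt14, its partner, lay between -0.89 and 1.81 in females (median 0.52) and between -2.33 and -0.2 in males (median -1.99). The sexes overlapped for both genes through a single animal, WT BC male 4, described with the skin genes below. The differences were 3.15 (SE 0.2) for Krt5, 2.44 (SE 0.16) for Krt14, 2.32 (SE 0.22) for Krt17 and 1.97 (SE 0.3) for Krt15, with limma's adjusted p between 1.36e-16 and 6.16e-07. Trp63, the p53 relative that maintains basal cells, was higher in females by 1.68 (SE 0.17).

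Among junction proteins, the adhesion molecule E-cadherin (Cdh1) was higher in females by 4.02 (SE 0.2), Cldn7 by 3.78 (SE 0.18) and Cldn3 by 3.01 (SE 0.15), the latter both claudins of tight junctions. The lowest female lay just above the highest male for Cdh1 (-1.78 against -1.87) and for Cldn3 (-1.62 against -1.71), and the low female was null control female 1 in both cases. Without it, the lowest females were at -0.22 for Cdh1 and -0.41 for Cldn3. Without background correction, this mouse lay below the highest male for Cdh1 (-2.3 against -1.87). Aqp5, a water channel of secretory epithelia, lay between -1.39 and 1.71 in females and between -3.72 and -2.73 in males, with a difference of 4.05 (SE 0.16). The epithelial protease inhibitors Spint1 and Spint2 were higher in females by 2.56 (SE 0.16) and 0.97 (SE 0.09).

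Of the transcription factors, Elf5, which drives alveolar differentiation, showed the largest difference. It lay between -2.34 and 2 in females (median 0.67) and between -4.83 and -2.67 in males (median -4.34), a difference of 4.8 (SE 0.23), and the sexes did not overlap. Foxa1, which opens chromatin for the estrogen receptor in luminal cells, lay between -0.58 and 1.41 in females and between -2.04 and -0.5 in males, a difference of 2.01 (SE 0.13) with the lowest female just below the highest male, null control male 2, whose array is one of the 9. Without background correction, the lowest female (-1.01) was above the highest male (-1.65). The difference was 1.88 (SE 0.2) for Ehf, 3.31 (SE 0.22) for Tcfap2c and 0.61 (SE 0.07) for Tcfap2a. Elf3, an epithelial ETS factor, was not well above background on any male array and was at least 2.81-fold higher in females. This bound sets the mean female Cy5 signal after normalization against, on each male array, the higher of its own signal and the lowest signal that the scanner called well above background, and it is open to dye bias since no dyes were swapped.

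Receptors and their ligands spread over a wide range. Prlr, the prolactin receptor, lay between -1.21 and 1.9 in females (median 0.84) and between -3.18 and -1.76 in males (median -2.75), a difference of 3.55 (SE 0.14). Its other probes gave 2.83 and 1.95. Areg, which encodes amphiregulin, the epidermal growth factor receptor ligand released under estrogen, lay between -3.52 and 2.59 in females (median 0.2) and between -4.01 and -1.79 in males (median -3.52), a difference of 3.56 (SE 0.33). Females covered almost the whole range of this gene, and the lowest 2 lay among the males. Without background correction only null BC female 3 did (-3.5, against a highest male of -3.45). Esr1, the estrogen receptor, which adipose cells also express, differed by 0.7 (SE 0.13), with a median of 0.42 in females and -0.24 in males and a broad overlap. Pgr, the progesterone receptor, was too dim to be tested and was well above background on 17 female arrays and 1 male array. This count includes faulty spots, and the highest male signal, 1153 Cy5 units in null control male 2, came from a spot that was set aside. The remaining receptors and ligands were higher in females by 2.38 (Erbb3, a partner of HER2), 2.08 (the receptor Kit), 1.56 (the oxytocin receptor Oxtr) and 0.68 (the Kit ligand Kitl).

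Of the 3 secreted proteins of host defence, Wfdc2 and Ltf showed large differences. Wfdc2, a whey-acidic-protein-domain protein of secretory epithelia, lay between -1.95 and 1.71 in females (median 0.67) and between -4.1 and -3.07 in males (median -3.68), a difference of 4.17 (SE 0.21). Ltf, which encodes the iron-binding milk protein lactoferrin, lay between -2.24 and 1.91 in females and between -4.01 and -2.06 in males, a difference of 4.07 (SE 0.22). Only null control female 1 reached into the range of males for Ltf. Lcn2, which binds bacterial iron carriers, differed by 1.83 (SE 0.14) and was among the 9 genes tested only through their signal in females.

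**Figure D2:**
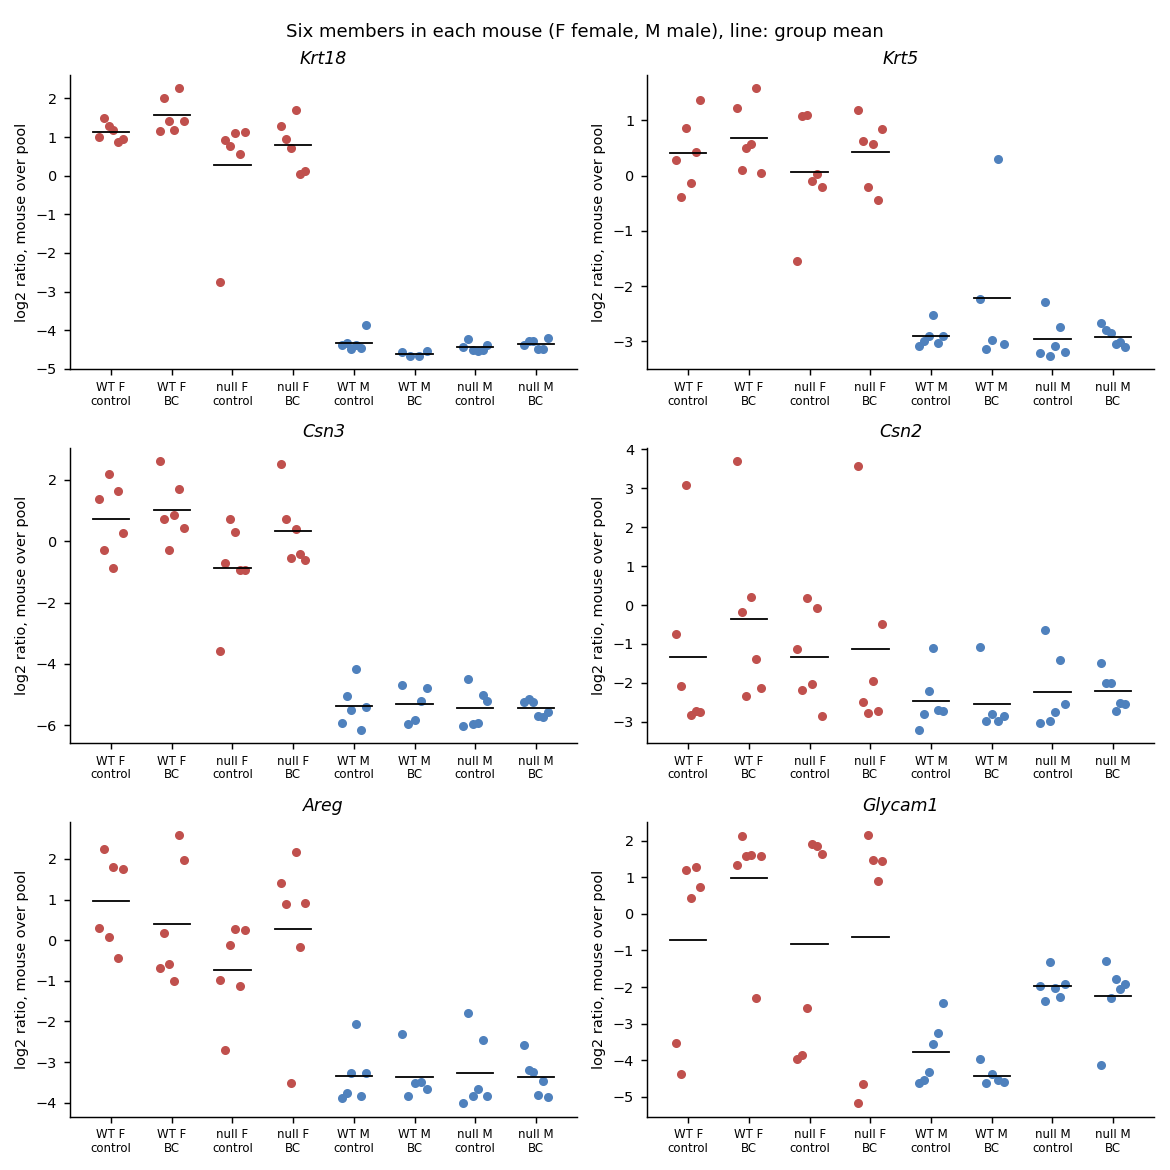
Log2 ratio of each mouse to the pool for Krt18, Krt5, Csn3, Csn2, Areg and Glycam1 in the 8 groups of sex, genotype and diet, with 1 point per mouse, red for females and blue for males, and a line at the group mean. Krt18 and Csn3 separated the sexes, Csn2 was high in 3 females from 3 different groups, and Glycam1 fell into a high and a low set of females within each genotype.

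The milk genes fell into 3 patterns. Csn3 (κ-casein) was high throughout the females, between -3.59 and 2.6 (median 0.35), and between -6.14 and -4.18 in males (median -5.41), without overlap. The highest male, WT control male 4, was at -4.85 without background correction. The sex difference of Csn3, 5.68 (SE 0.28, adjusted p = 1.49e-20 by limma), was the largest of the set. Its median Cy5 intensity was 21697 units in females and 294 in males. A second probe of Csn3 gave 1.52. Wap and Lalba stayed at background in both sexes. Wap lay between -0.22 and 0.13 in females and between -0.32 and 0.34 in males, and Lalba between -0.28 and 0.6 in females and between -0.34 and 0.08 in males. The scanner called Wap well above background on 5 female and 4 male arrays and Lalba on 7 female arrays and no male array.

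The other caseins (Csn2, β-casein, with Csn1s1 and Csn1s2a of the α type) were high in only 3 mice. Csn2 stood at 3.09 in WT control female 3, at 3.69 in WT BC female 1 and at 3.57 in null BC female 1, with Cy5 intensities of 8119, 11790.5 and 10285 units. In the other 21 females Csn2 lay between -2.84 and 0.2, with intensities of 62 to 814 units, and in males between -3.2 and -0.64. The 3 mice came from both genotypes and both diets, and the arrays of WT BC female 1 and null BC female 1 shared slide 1. Csn1s1 stood at 2.62, 3.6 and 3.57 in the same 3 mice and Csn1s2a at 2.54, 3.55 and 3.14. Intermediate levels were seen in several other females. WT BC female 4 had 0.2 for Csn2, 0.86 for Csn1s1 and 1.4 for Csn1s2a, and null control female 3 had 0.19, 0.87 and -0.01. WT BC female 2 had -0.17, -0.12 and 0.06, and WT BC female 5 had -1.39, 1.19 and 0.06. Null control female 5, whose array had a raised Cy3 median, had -0.08, -0.17 and -0.18. Without background correction, the 3 high mice stood apart in the same way, with 3.58 in null BC female 1, and null control females 1 and 2 came to -2.71 and -2.49 for Csn2. The mean of Csn2 was higher in females by 1.31, a value that carries no test since the gene was bright enough only through females. It came to 0.45 with slide as a block, and the differences within the 4 shared slides ran from -0.28 to 1.31.

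In the 3 mice with high caseins, Csn3 was also at the top of the females (2.19, 2.6 and 2.52), and Elf5 stood at 1.59, 1.88 and 2. Wfdc2 lay below the median of all females (0.67) in the same mice, at -1.26, -1.27 and -0.04. It was also low in females without high caseins, at -1.95 in null control female 1, -0.53 in null control female 3 and -0.16 in null BC female 6. In the 3 mice with high caseins, Wap was at 102, 92.5 and 104 Cy5 units and Lalba at 130, 102.5 and 92 units, within the range of the other mice. The list of 7 smooth muscle and myoepithelial genes had a median of 0.8, 1.14 and 1.06 in them, among the 4 highest females. WT BC female 5 showed another combination. It had the highest Krt18 (2.27), Krt15 (2.56) and Areg (2.59) of all mice, Elf5 at 1.8 and Csn1s1 at 1.19, but Csn2 at -1.39, and it had the highest value of Tnfsf11 (3.28), the ligand RANKL through which progesterone acts on neighbouring cells. Tnfsf11 stood at 1.97 in null BC female 1 and at 1.21 in null BC female 6, and at 0.35 or below in the other 21 females.

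**Figure D3:**
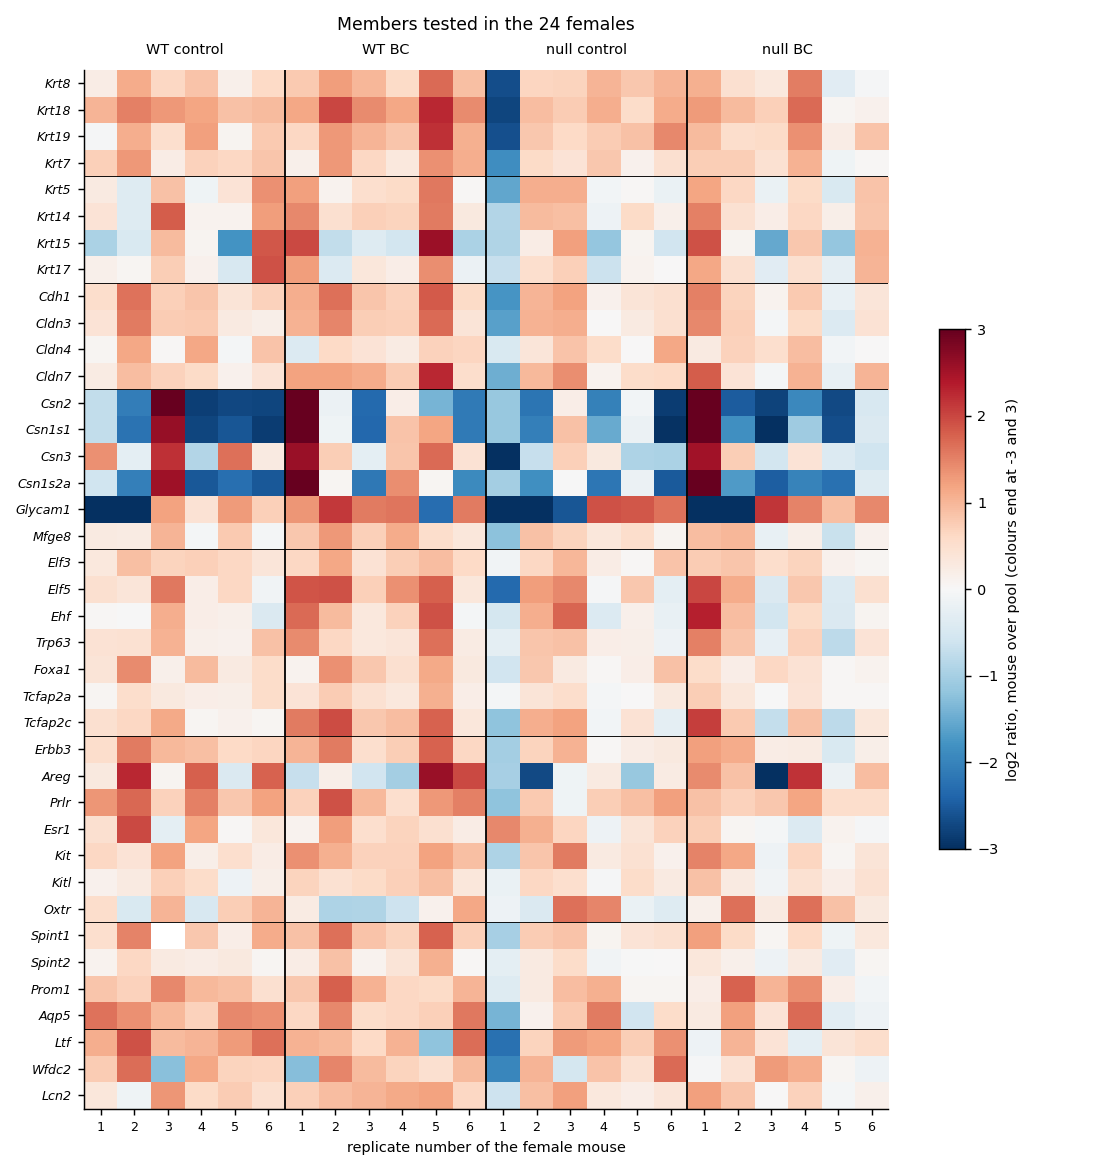
Log2 ratio to the pool of the 39 genes tested in the 24 females, with 1 column per mouse, groups separated by black lines, and red for levels above and blue for levels below the pool, on a scale that ends at -3 and 3. The luminal keratins of null control female 1 stand out in dark blue (Krt18 at -2.76), and Csn2, Csn1s1 and Csn1s2a are dark red in 3 mice of 3 groups.

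Effects of diet and genotype in females were tested at the unadjusted p of 0.01 that the study used. No gene of the set passed it for the BC diet in WT females, where 9.29% of all genes tested did. None passed it for the BC diet in null females (0.396% of all genes), for genotype on the control diet (4.73%), for genotype on the BC diet (10.1%) or for the interaction of genotype and diet (2.58%). At an unadjusted p of 0.05, limma gave 0, 0, 5, 3 and 0 of the 39 genes in these comparisons, against 23.5, 2.74, 10.8, 21.9 and 9.76% of all genes. Without null control female 1 these counts were 3, 1, 1, 8 and 1, against 24.8, 3.92, 14, 23.2 and 16% of all genes, with Krt19, Cldn7 and Kitl higher on the BC diet in WT females. The methods' t-test at 0.01 also gave 0 in each of the 4 comparisons of a pair of groups. With slide as a block, 2 genes passed 0.01 for genotype on the control diet, Aqp5 (-1.22, adjusted p = 0.152 by limma) and Prlr (-1.05, adjusted p = 0.204), and none in the other 4 comparisons. Standard errors ran from 0.15 to 1.46, so that differences of 1 log2 unit in the more variable genes were not detectable with 6 mice a group.

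In WT females, Krt18 lay between 0.88 and 1.5 on the control diet (median 1.1) and between 1.15 and 2.27 on the BC diet (median 1.42). The difference of 0.43 had a 95% interval from -0.53 to 1.4, which was -0.06 to 0.93 without null control female 1, a mouse of neither group that enters the shared spread. Krt5 differed by 0.27 (interval -0.56 to 1.1), Csn3 by 0.29 (-1.11 to 1.68) and Prlr by -0.06 (-0.71 to 0.59), and each pair of groups overlapped. The largest difference of the set, 1.69 for Glycam1, had an interval from -1.33 to 4.71. Elf5 differed by 0.81 (-0.26 to 1.88) and was higher on the BC diet within each of 5 slides that held both diets. Csn2, Csn3 and several other genes of the set were also higher within each of the 5, while Foxa1 was higher in 1 and Areg in 2. For Csn2 and Csn3 the smallest difference within a slide was 0.07. On slide 6 the mean of WT control females 3 and 4 was compared with WT BC female 4. Csn2 was at 0.2 in this BC mouse, against 3.09 and -2.82 in the 2 controls, and Csn3 at 0.84 against 2.19 and -0.88. How many of all genes were higher within each slide was not counted. Of the 39 genes, 31 had a higher mean on the BC diet, with a median difference of 0.29, where 48.8% of all genes did. The genes share mice and move together from mouse to mouse, so that this count is not made of independent values. In null females 35 of 39 had a higher mean on the BC diet (median 0.24, 50.3% of all genes), but 16 of 39 did, with a median of -0.04, when null control female 1 was left out.

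Between genotypes, only 3 of the 39 genes had a higher mean in null females on the control diet and 2 of 39 on the BC diet. Of all genes, 47.5% and 48.9% did. The medians were -0.29 and -0.4, where all genes had -0.01 in both. As with diet, these counts are not made of independent values. Without null control female 1, the control diet gave 15 positive and 23 negative differences with a median of -0.06. On the control diet, Aqp5 lay between 0.69 and 1.62 in WT (median 1.37) and between -1.39 and 1.56 in null females (median 0.34). Prlr lay between 0.69 and 1.73 in WT (median 1.26) and between -1.21 and 1.24 in null females (median 0.76). For both genes the groups overlapped, and null control female 1 was the lowest mouse. The difference of null minus WT was -1.07 (SE 0.39, adjusted p = 0.248 by limma) for Aqp5 and -0.83 (SE 0.31, adjusted p = 0.276) for Prlr. Without that mouse, they came to -0.76 (adjusted p = 0.355) and -0.51 (adjusted p = 0.379), and only Aqp5 stayed below an unadjusted 0.05. Csn3 differed by -1.58 (SE 0.67, adjusted p = 0.374), Areg by -1.7 (SE 0.81, adjusted p = 0.468) and Erbb3 by -0.65 (SE 0.31, adjusted p = 0.475), and with Aqp5 and Prlr these made up the 5 genes of the set below an unadjusted 0.05. Areg ranged from -0.44 to 2.25 in WT and from -2.71 to 0.27 in null females on this diet.

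On the BC diet, Krt18 lay between 1.15 and 2.27 in WT (median 1.42) and between 0.05 and 1.69 in null females (median 0.84), a difference of -0.77 (SE 0.47, adjusted p = 0.344 by limma). The spread in this model is shared by all 24 females, and without null control female 1, which belongs to neither group, the SE was 0.24 and the adjusted p = 0.0538, with an unadjusted p below 0.01. Spint2 (-0.4), Spint1 (-0.64) and Oxtr (0.96) were below an unadjusted 0.05, with adjusted p of 0.173 to 0.206. Oxtr was the exception in direction, between -0.92 and 1.17 in WT and between 0.15 and 1.66 in null females. Over both diets together, a comparison that was chosen after the data had been seen, 1 of the 39 genes passed 0.01, against 9.85% of all genes. This was Erbb3 (-0.64, SE 0.22, adjusted p = 0.0955), which encodes a neuregulin receptor. Without null control female 1, Erbb3 did not pass (-0.51, adjusted p = 0.152 by limma) while Krt18 did (-0.5, adjusted p = 0.0965). At 0.05 the share of the set was near that of all genes, with 8 of 39 against 20%. Null females had the lower mean for 38 of the 39 genes, with a median of -0.37, and for 36 of 39 with a median of -0.27 without null control female 1. Of all genes, 48.2% had a higher mean in null females in the fit with every mouse. The genes of the set share mice and move together, so that these counts are not made of independent values. Krt18 differed by -0.81 (interval -1.49 to -0.12) and Csn3 by -1.12 (-2.11 to -0.13) in this comparison, and Csn2 by -0.4 (-2.07 to 1.28). The fit behind these 3 values included null control female 1, where Csn3 was at -3.59. In the other mice of its group Csn3 lay between -0.95 and 0.71.

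**Figure D4:**
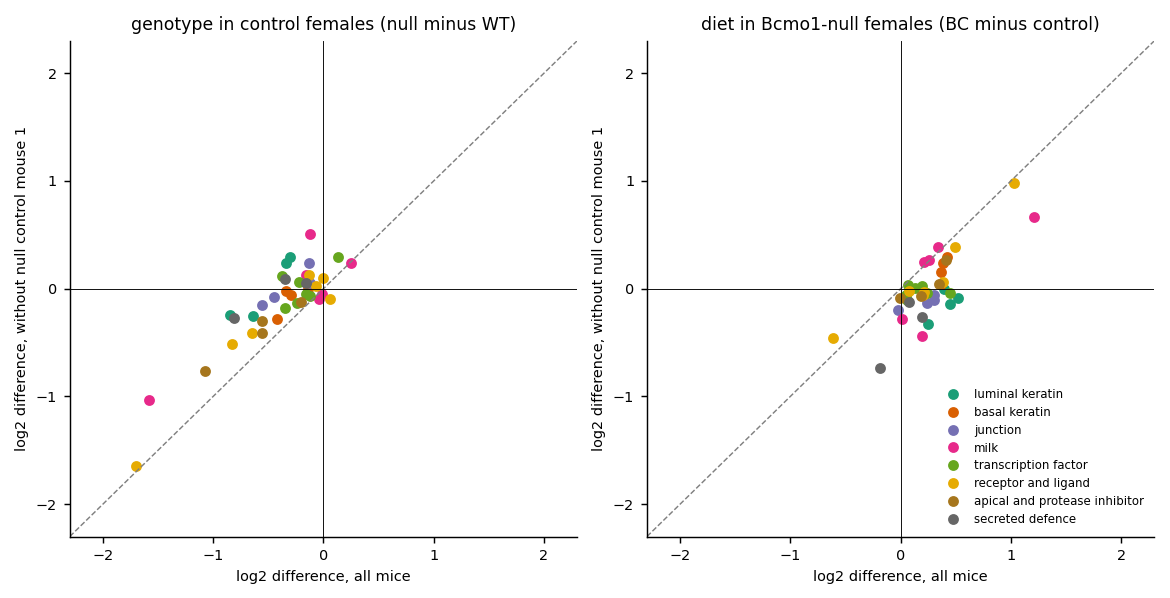
Log2 differences of the 39 genes in females, null minus WT on the control diet (left) and BC minus control diet in null mice (right), with the value from all mice on the horizontal axis and the value without null control female 1 on the vertical axis, and a dashed line where both are equal. Most points lie off the line towards 0 or across it, and the count of genes with a positive difference goes from 3 to 15 on the left and from 35 to 16 on the right.

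Null control female 1 itself had Krt18 at -2.76, Krt8 at -2.67, Krt19 at -2.64, Elf5 at -2.34 and Csn3 at -3.59. The other 5 females of its group had Krt18 between 0.56 and 1.12, and the median of the 4 luminal keratins was -2.65 in this mouse and -0.03 or higher in every other female. All the same, it stayed above the highest male for this median (-3.58). Esr1 was 1.45 in this mouse, the upper end of its group. The adipocyte list stood at 0.51, the skeletal muscle list at 1.73, where the median of the group lay below 0, and the lymph node list at -1.71. Their part in the low epithelial levels was not tested.

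Luminal genes rose and fell together over the 24 females, each centred on its group. Krt18 and Krt8 correlated with r = 0.98 and rho = 0.94 (adjusted p = 1e-04 for both in a permutation test with 1e+05 draws, the smallest it could give for the 10 genes compared). Krt18 and Prlr correlated with r = 0.79 and rho = 0.67 (permutation p = 0.00019 and 0.00026, adjusted 0.00095 and 0.0013). Without the 2 mice farthest from the median of Krt18, null control female 1 and WT BC female 5, r was 0.92 with Krt8 and 0.57 with Prlr (adjusted permutation p = 0.002). The relation with the basal keratins was weaker, at r = 0.52 for Krt5 and 0.42 for Krt14 (adjusted permutation p = 0.0963 for both, rho 0.28 and 0.37), and it rested on these mice, since r was -0.02 for both without them. Csn3 gave r = 0.56 (adjusted permutation p = 0.0963, rho 0.41) and 0.18 without them. With values centred on slide as well, and these mice kept, r was 0.66 for Krt5, 0.63 for Krt14 and 0.77 for Csn3 (adjusted permutation p = 0.0135, 0.0115 and 0.00663). Csn2 did not track Krt18 (r = -0.02, rho 0.08, adjusted permutation p = 0.9), but gave 0.58 (adjusted permutation p = 0.0157) when values were centred on slide as well. The markers of other tissues gave r = -0.08 for Adipoq, 0.1 for Cd79b, -0.22 for Krt10 and -0.42 for Acta1, with adjusted permutation p of 0.0963 to 0.9. Krt10 gave r = -0.43 without null control female 1 and -0.44 without both mice (adjusted permutation p = 0.122 and 0.092).

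Basal keratins are also made by skin, and the median of 7 epidermal genes that were bright enough, of 13 on the array, was read beside them. In males, the list stood at 1.08 in WT BC male 4 and between -0.87 and -0.16 in the other 22. This mouse also had Krt5 at 0.3, Krt17 at 1.48, Krt15 at 0.93, Krt14 at -0.2 and Trp63 at 0.2, each the highest of the males. Its luminal keratin median was -4.26, within the range of males (-4.35 to -3.58). In females, the epidermal list stood at 2.7 in WT control female 6, at 1.73 in WT BC female 1 and at 0.35 in null BC female 6, and at -0.11 or below in the others. Those mice had a basal keratin median of 1.63, 1.35 and 0.94. Comparable medians came with a low epidermal list in WT BC female 5 (1.58, list at -0.86), null BC female 1 (1.35, -0.86) and null control female 3 (1.01, -0.85). The part of skin in the basal keratins was not tested.

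**Figure D5:**
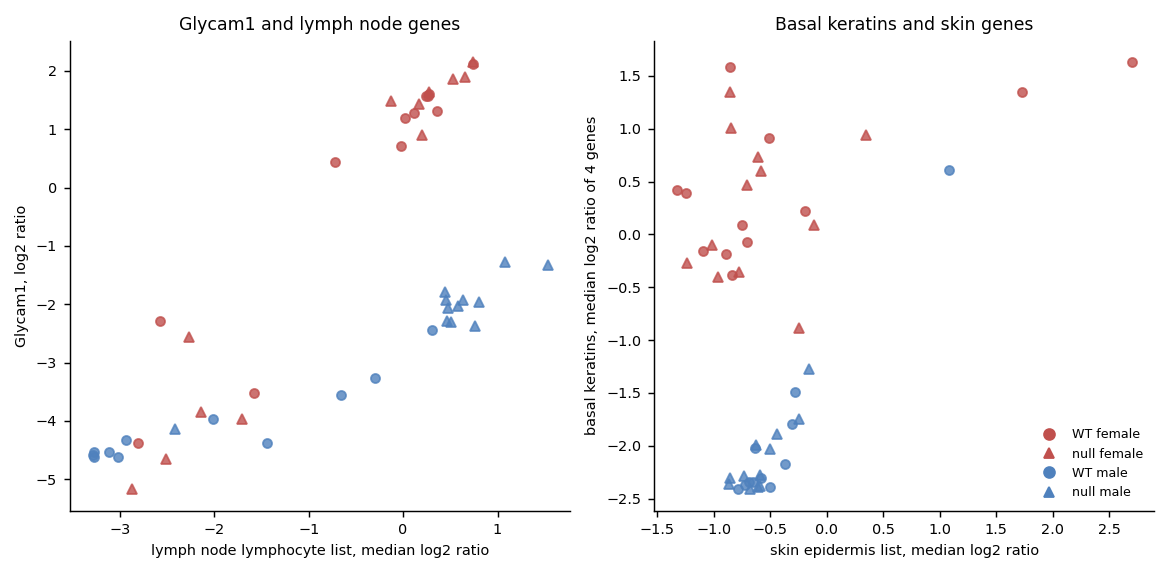
Left, Glycam1 (log2 ratio) against the median log2 ratio of the lymph node lymphocyte list, and right, the median of the 4 basal keratins against that of the skin epidermis list, with 1 point per mouse, red for females, blue for males, circles for WT and triangles for null. Females with a lymph node list below -1.5 had Glycam1 at -2.29 or below, and WT BC male 4 is the only blue point above 0 on the right.

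Glycam1 takes its name from a mucin of high endothelial venules, the vessels through which lymphocytes enter lymph nodes, and the mammary gland makes it as a milk protein under prolactin. In females it was either between 0.44 and 2.15 (16 mice) or between -5.17 and -2.29 (8 mice). The low mice were WT control females 1 and 2, WT BC female 5, null control females 1, 2 and 3, and null BC females 1 and 2, among them 1 of the 3 mice with high caseins. The lymph node lymphocyte list had a median of -2.87 to -1.58 in these 8 and of -0.72 to 0.74 in the other 16. The inguinal pad holds a lymph node, and the share of it in a sample was not recorded in the sources used here.

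In males, Glycam1 was higher in null mice. It lay between -4.61 and -2.44 in WT control males (median -3.94) and between -2.38 and -1.32 in null control males (median -2), without overlap. Without background correction these groups overlapped, with null control male 2 at -2.64 and WT control male 6 at -2.47. The array of null control male 2 is one of the 9 with a raised Cy3 median. On the BC diet Glycam1 lay between -4.61 and -3.96 in WT males and between -4.14 and -1.28 in null males. There, null BC male 1 at -4.14 was the only null mouse in the range of WT. The difference was 1.8 (SE 0.38, adjusted p = 0.00163 by limma) on the control diet and 2.17 (SE 0.4, adjusted p = 0.000821) on the BC diet. The lymph node list moved with it, since its median was between 0.47 and 1.53 in null control males and -2.42 in null BC male 1, and -3.29 to 0.31 in WT males. Cd79b, a B cell gene of that list, differed by 3.04 (SE 0.79) and 3.51 (SE 0.83) in the same direction. Whether the node accounts for Glycam1 was not tested.

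Mfge8, which encodes the milk fat globule protein lactadherin and is made by many cells besides epithelium, went the other way. It lay between -0.03 and 0.54 in WT control males (median 0.25) and between -0.97 and -0.14 in null control males (median -0.77). On the BC diet, it lay between -0.17 and 0.39 in WT (median 0.02) and between -1.75 and -0.71 in null males (median -0.85). The groups did not overlap on either diet, and null minus WT was -0.95 (SE 0.16, adjusted p = 0.000293 by limma) and -1.03 (SE 0.17, adjusted p = 0.000256). Its median intensity was 153055 Cy5 units in males and 211284 in females, the brightest gene of the set in males. In females the same difference was -0.16 (SE 0.31) on the control diet and -0.58 (SE 0.31) on the BC diet, and the test of whether sexes differed gave 0.62 (SE 0.26, adjusted p = 0.0621 by limma).

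Glycam1 and Mfge8 were the only genes of the set at an unadjusted p of 0.01 for genotype in males, 2 of 30 on each diet, where 28.9% of all genes passed on the control diet and 26.9% on the BC diet. At an adjusted p of 0.05, Kitl was added on the control diet (-0.29, SE 0.11, adjusted p = 0.0488) and Krt8 on the BC diet (0.27, SE 0.1, adjusted p = 0.0462), against 31.5% and 29.8% of all genes. For the BC diet in WT males, 1 of 30 genes passed 0.01 (0.1% of all genes). This was Krt18, between -4.49 and -3.87 on the control diet and between -4.67 and -4.55 in the 4 BC males measured, a difference of -0.29 (SE 0.1, adjusted p = 0.988 by limma). No gene passed under 7 of 14 other settings, or when WT control male 2 or 6 or any of WT BC males 1 to 4 was left out. The BC diet in null males (0.479% of all genes) and the interaction of genotype and diet in males (0.116%) gave 0 of 30 genes at 0.01 by limma, with 0 at 0.05 for the diet (3.71% of all genes) and 2 for the interaction (1.38%), Krt8 and Krt18.

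A test of whether the genotype difference depended on sex, chosen after the data had been seen, found 1 of 39 genes at an unadjusted p of 0.01 and 2 at an adjusted p of 0.05, against 29.3% and 32.9% of all genes. Aqp5 was the first, since null minus WT was -1.07 and -0.4 in females and 0.36 (SE 0.15) and 0.25 (SE 0.16) in males, with a difference of -1.04 (SE 0.31, adjusted p = 0.00932 by limma). Glycam1 was the second (-2.86, SE 1.12, adjusted p = 0.0453). Without null control female 1, 3 genes passed 0.01, namely Aqp5 (-0.88), Krt18 (-0.57) and Mfge8, with adjusted p of 0.0141, 0.022 and 0.00878 by limma, while Glycam1 lost its call (-2.54, adjusted p = 0.0752). The effect of the BC diet did not pass 0.01 for a dependence on sex in any gene of the set, in WT mice (9.2% of all genes) or in null mice (0.435%), and 0 of 39 passed 0.05 by limma in either (23.9% and 3.12% of all genes).

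Beyond the 44 genes, a list of 30 further mammary epithelial genes was read, of which 23 were tested. At an adjusted p of 0.05, 20 were higher and 1 was lower in females, with a median of 1.6, where 28.4% of all genes were higher. Only 19 genes of the list were bright enough in males alone, and those that entered only through their signal in females had to differ. Tacstd1, which encodes the epithelial adhesion molecule EpCAM, was higher by 4.55 (SE 0.19) and Gata3, a luminal factor, by 3.74 (SE 0.2), while Sfn differed by -0.3 (SE 0.05). Markers of the other tissues were read in the same comparison. Of 12 adipocyte genes tested, 8 were lower in females and none higher, with a median of -0.48, and of 13 skeletal muscle genes 11 were lower, with a median of -1.74. No lymph node gene of 14 and 1 skin gene of 7 (lower in females) passed. Of 7 genes of smooth muscle and myoepithelium 5 were higher and 1 was lower in females, with a median of 0.8, and of 6 brown adipocyte genes 3 were higher and 1 was lower, with a median of 0.34. For genotype in females at an unadjusted p of 0.01, 2 of the 23 further mammary genes were lower in null mice on the control diet. On the BC diet 1 was lower, and none was higher on either diet. Over all genes, 4.73% and 10.1% passed in either direction, and this fit included null control female 1. Brown adipocyte genes were lower in null females on both diets, with 5 of 6 at that threshold each time.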

How the data were processed

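Arrays were Agilent 4x44K mouse slides with Cy5 for 1 mouse and Cy3 for a pool of all samples. The authors deposited median signals and local backgrounds as intensity per spot, from Feature Extraction (version 9.5.3.1 in the file headers, positions on mm8), and the log10 ratio of their processed signals, which the deposited series table repeats with a median of 0 on each array. Each ratio runs Cy5 over Cy3 as labelled, without dye swaps. Deposited intensities were corrected with normexp (offset 50), normalized with loess and turned into log2 ratios in R 4.3.3 with limma 3.58.1. Over all arrays, 10902 faulty spots were set aside and spots of a probe averaged. A gene is represented by its brightest probe over all arrays, tested where the Cy5 and the Cy3 mean both reached 2 times the local background. The count of arrays and the signal over background limit the precision.

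With limma (lmFit, eBayes), a mean per group was estimated over 24 females, 23 males or all 47 arrays, with Benjamini-Hochberg adjustment over all probes kept. Mice were separate animals per the labels, and cages are not labelled. Mice were not treated as pairs by replicate number. Same-numbered mice of different groups correlated between -0.45 and 0.61 in females (mean 0.13, against -0.02 for other pairs) and between -0.53 and 0.63 in males (0.03 against -0.01). Of these pairs, 14 of 36 in females and 14 of 33 in males shared a slide, so that replicate number and slide partly coincide. The mean was 0.19 on a shared slide and 0.08 otherwise in females, and 0.07 and 0 in males. No arrays were duplicates (highest correlation 0.939). The members and lists were chosen with earlier results of these data known, and single genes were named as anchors on a fixed list, as members at an unadjusted p under 0.01, or as the 8 largest sex differences. Any other named gene was chosen after its values were seen. RefSeq accessions matched 38 of the 44 genes. Scripts were tested on simulated data with known changes. Figures were drawn with matplotlib 3.10.9. Alternatives were other background corrections and normalizations, the deposited log10 ratios, other filters, averaged probes, slide or replicate number as a block, other sets of arrays in the fit, the methods' t-test, and leaving out each mouse.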

Additional observations from a re-analysis of the deposited data

Results flagged for a closer look

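Levels of 22 genes or lists in each of 8 groups (176 in all) were examined for a mouse far from the rest of its group, by the gap to its nearest neighbour as a share of the range. The gap exceeded the limit in 26, where chance gives about 1 in 20. Null control female 1 lay below its group for the luminal keratins (0.88 of the range), the receptors and ligands (0.75), the secreted defence genes (0.72), Krt8 (0.9) and Krt18 (0.86). High caseins set apart null BC female 1 (milk genes 0.7, Csn2 0.64) and WT control female 3 (milk genes 0.68, Csn2 0.65). WT BC female 2 was high for the apical and protease inhibitor genes (0.71), and WT control female 2 for the secreted defence genes (0.63).

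In males, WT BC male 1 was high for the milk genes (0.9), the transcription factors (0.75), the secreted defence genes (0.73), Csn2 (0.89), Foxa1 (0.75) and Areg (0.76). WT control male 4 was high for the transcription factors (0.66), Krt5 (0.69), Elf5 (0.7) and Areg (0.66), and null control male 2 for the luminal keratins (0.78) and Krt8 (0.78). The background correction had raised the median Cy3 of these arrays by 2.42, 1.5 and 4.56 times, and without it none of the 7 single genes named here for these arrays exceeded the limit (gaps of 0.0586 to 0.409 of the range). WT BC male 4 was high for Krt5 (0.73) together with the skin genes. WT control male 6 was high for Krt18 (0.74), and WT control male 5 low for Wap (0.64), which was at background.

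The genotype difference depended on sex for Aqp5 (-1.04) and Glycam1 (-2.86) at an adjusted p under 0.05. Without null control female 1, Glycam1 was at -2.54 with an adjusted p of 0.0752 by limma.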

How the results depend on the processing

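All 12 alternatives for the sexes gave 35 to 40 genes (9 of the 39 tested only through females), and leaving out single mice gave 38 to 39. The cause of the changes below was not tested. Counts at an unadjusted p of 0.01 moved as follows. For genotype in control females, 0 became 2 without normalization, 2 with slide as a block and 3 with all 47 arrays, and 0 to 1 without single mice (1 without WT control female 3 or 4, or null control female 3, 4, 5 or 6). For genotype in BC females it was 0 to 1 (1 without WT BC female 6). For genotype over both diets, 1 became 0 with Agilent's processed signals, the deposited ratios, median centring or the methods' t-test, 2 without normalization or with slide as a block, 5 with all 47 arrays, and 0 to 3 without single mice. For sex by genotype, 1 became 3 with processed signals or deposited ratios, 2 with Cy5 alone or slide as a block, and 1 to 3 without single mice. For sex by diet in WT, 0 became 1 with no filter, with Cy5 well above background, or with only the groups compared.

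In males, the diet count in WT of 1 became 0 (processed signals, deposited ratios, median centring, Cy5 alone, only the groups compared, all 47 arrays, methods' t-test), 3 without normalization and 2 with no filter, and 0 to 1 without single mice, which also held for diet in null males. For genotype in control males, 2 became 4 without background correction or with only the groups compared, 5 with processed signals or deposited ratios and 1 with all 47 arrays, with 2 to 3 without single mice. For genotype in BC males, 2 became 6 without background correction, with processed signals or deposited ratios and 1 with all 47 arrays, with 2 to 5 without single mice. For the interaction, 0 became 2 without background correction or filter and 1 with processed signals, deposited ratios, Cy5 well above background or slide as a block, with 0 to 2 without single mice.

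Mice were not treated as pairs by replicate number in the main fits. As a block, replicate numbers moved 3 counts, to 2 for genotype over both diets, 2 for sex by genotype and 1 for the interaction in males.

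Some differences turned direction. Foxa1 for diet in WT females became -0.02 with processed signals or deposited ratios. For genotype in control females, Krt14 became 0.19 with Cy5 alone, Esr1 became -0.02 with median centring and -0.03 without normalization, and Csn2 became 0.13 without background correction, 1.76 with processed signals or deposited ratios, 0.06 with median centring, 0.05 without normalization, 0.08 with Cy5 alone and 1.22 with slide as a block. Without single mice, diet in WT females ran from -0.03 to 0.58 (Csn3), -0.06 to 0.23 (Foxa1), -0.21 to 0.06 (Prlr) and -0.26 to 0.19 (Esr1), and genotype in control females from -0.5 to 0.24 (Krt8), -0.32 to 0.88 (Csn2), -0.64 to 0.12 (Elf5) and -0.12 to 0.33 (Esr1).

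For the correlations with Krt18, r without centring was 0.5 (Krt14), 0.57 (Krt5), 0.67 (Csn3) and 0.06 (Csn2). Centred on slide as well, it was 0.63 (Krt14), 0.66 (Krt5), 0.77 (Csn3), 0.58 (Csn2) and -0.05 (Cd79b). Without the 2 farthest mice it was -0.02 (Krt14), -0.02 (Krt5), 0.05 (Csn2), 0.07 (Adipoq), -0.25 (Cd79b) and 0.12 (Acta1), and without null control female 1 alone -0.35 (Cd79b) and 0.04 (Acta1).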
